A study of Drosophila melanogaster with 3 samples.

Results

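The genes reaper (rpr), head involution defective (hid), grim and sickle (skl) encode the Drosophila antagonists of the inhibitor of apoptosis protein Diap1. The regions reported here are those in which ChIP-seq of GFP-tagged Mirror called peaks at these 4 genes and at Diap1 itself. The 5 genes were chosen by name from 13945 protein-coding genes on the chromosome arms, with earlier results of these data known. Each was examined over its gene body and 20 kb on each side, and the sequence between the 4 antagonist genes was examined as well. These windows held 10 of the 6201 peaks that passed the authors' test of reproducibility. All 5 genes lie on arm 3L, on the minus strand of dm6. The 4 antagonists form a cluster in the order hid, grim, rpr, skl, whereas Diap1 lies 2.12 Mb away from hid and is not part of that cluster.

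As background, the 4 antagonists share a short N-terminal motif that binds Diap1. Diap1 is a ubiquitin ligase that holds the initiator caspase Dronc and the effector caspase Drice in check. When an antagonist binds Diap1, the caspases are released and the cell dies. Loss of hid, grim and rpr together blocks nearly all programmed cell death in the embryo. Their transcription is the main point at which death is switched on, and it is read out from long stretches of intergenic DNA, including an enhancer used in doomed neuroblasts between grim and rpr and a radiation-responsive stretch upstream of rpr. Mirror belongs to the Iroquois group of homeodomain proteins, which regulate transcription during the patterning of eyes, wings and the back of the body.

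The material was whole embryos of both sexes, aged 4 to 20 h, from a stable transgenic line in which mirr carries a C-terminal GFP. There was 1 group of 3 biological replicates and no untagged, untreated or mutant group, so no comparison between conditions could be made and no test was run. Whole embryos mix all cell types, and a region occupied in few cells cannot be told apart from one occupied weakly in many. The promoter that drives the fusion was not given in the sources used here. The free-text description calls each sample an input control, while the title, the assay and the antibody fields name ChIP of a transcription factor. The age field was unreadable, and the age was taken from the source label.

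Each replicate had a relaxed list of 30000 regions, and so had the call on all 3 replicates pooled. The 6201 pooled regions with the highest signal are the list that passed the irreproducible discovery rate (IDR) procedure and are called IDR peaks here. For the spread between replicates, the 6201 regions with the highest signal in each replicate list, called its strongest regions, were counted in the same way. The signal is the authors' own value for each region, without a stated scale; ranks run from 1, the strongest, and signals are not compared between lists. Sequencing depth is unknown. A relaxed region is a candidate rather than a call, and a gene without a region in these lists is not shown to be free of Mirror. Replicate 3 stood apart at the antagonist cluster, as described with the replicate lists, and values are given with and without it.

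The sequences at the peaks that carry these results are shown first, from the RefSeq Release 6 genome, plus strand, 201 bases centred on the summit. Capitals mark matches to the 6 sequences that were searched. The first 3 are the IDR peaks of the antagonist cluster, and no match to any of the 6 lay within 100 bp of these summits.
CG7330 promoter peak, before hid, chr3L:18148543-18148743: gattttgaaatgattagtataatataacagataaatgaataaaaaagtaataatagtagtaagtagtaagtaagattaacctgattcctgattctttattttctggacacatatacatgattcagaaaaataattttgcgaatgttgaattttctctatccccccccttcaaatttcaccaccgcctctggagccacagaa
hid promoter peak, chr3L:18185979-18186179: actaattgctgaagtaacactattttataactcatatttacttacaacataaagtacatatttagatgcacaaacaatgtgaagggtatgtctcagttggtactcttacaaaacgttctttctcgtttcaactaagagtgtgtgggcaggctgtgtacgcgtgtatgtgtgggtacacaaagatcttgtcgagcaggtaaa
Peak between hid and grim, chr3L:18237874-18238074: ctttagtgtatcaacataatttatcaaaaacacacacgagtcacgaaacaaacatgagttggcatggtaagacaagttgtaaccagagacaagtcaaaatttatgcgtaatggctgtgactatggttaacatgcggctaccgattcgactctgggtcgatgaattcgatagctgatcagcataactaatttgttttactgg
The next 3 come from the Diap1 window. The first is the strongest intronic peak of Diap1, the second the strongest peak in the neighbouring gene Notum, with its GATA factor match GATAAG in capitals, and the third the match to the Iroquois sequence ACANNTGT at the Diap1-RB promoter, with 10 bases on each side.
Diap1 intron peak, chr3L:16045845-16046045: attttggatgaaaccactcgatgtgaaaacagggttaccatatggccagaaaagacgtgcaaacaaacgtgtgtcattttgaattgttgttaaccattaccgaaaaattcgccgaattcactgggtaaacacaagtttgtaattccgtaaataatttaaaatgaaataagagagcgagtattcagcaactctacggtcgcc
Notum intron peak, chr3L:16026201-16026401: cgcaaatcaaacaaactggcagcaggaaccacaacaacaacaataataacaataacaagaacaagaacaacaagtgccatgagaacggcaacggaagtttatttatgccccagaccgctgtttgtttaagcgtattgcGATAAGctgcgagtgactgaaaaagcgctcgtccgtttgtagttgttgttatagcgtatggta
Diap1-RB promoter match, chr3L:16050608-16050635: aaatgtttacACAACTGTgctcacgtcg
The last is the relaxed region nearest upstream of rpr that recurred in all 3 replicates, shown because no IDR peak lies near rpr.
Region upstream of rpr, chr3L:18402367-18402567: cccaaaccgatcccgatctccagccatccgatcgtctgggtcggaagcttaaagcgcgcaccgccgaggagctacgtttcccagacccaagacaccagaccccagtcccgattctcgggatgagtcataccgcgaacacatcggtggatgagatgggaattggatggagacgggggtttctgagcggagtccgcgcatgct

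Mirror peaks were few across the 4 antagonist genes and dense at Diap1. The reaper-group interval, from 20 kb before hid to 20 kb after skl (3L, 18147745 to 18459942, 312 kb) held 3 IDR summits, and the window of Diap1 (16018410 to 16071034, 52.6 kb) held 7. Per length, this was 0.207 times the density of IDR summits over all arms for the interval and 2.87 times for Diap1. In the strongest regions of replicates 1, 2 and 3 the interval held 3, 4 and 5 summits (4.00 ± 1.00, SD, n = 3), and the Diap1 window 8, 8 and 10 (8.67 ± 1.15). The corresponding density ratios were 0.277 ± 0.0692 and 3.56 ± 0.474, and the ranges over the replicates did not overlap. The 2 windows differ in length, and neither ratio is rare over the arms. Of 424 windows as long as the interval, 16.5% held 3 or fewer IDR summits, and 16.7% of genes had windows at least as dense as that of Diap1. Without replicate 3, the mean number of summits in the strongest regions was 3.5 in the interval and 8 at Diap1. Over the 10 IDR peaks, the strongest was at a Diap1 promoter and the weakest in an intron of Notum, beside Diap1.

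Counted by gene, 2 of the 5 had an IDR summit in the gene body or within 20 kb of it, Diap1 and hid, against 79.1% of all genes. The same 2 genes had an IDR summit within 1000 bp of a transcription start site (TSS), against 25.1% of genes. Diap1 was the 1 gene of the 5 with an IDR summit inside its body, against 16.3% of genes. The windows of grim, rpr and skl held no IDR summit, which was also so for 20.9% of all genes. The hid window held 2, a number reached by 64.2% of genes, and the Diap1 window 7, reached by 13.7%. Set per length, 16.7% of genes had windows at least as dense as that of Diap1. The median over all genes was 3 summits.

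**Figure D1:**
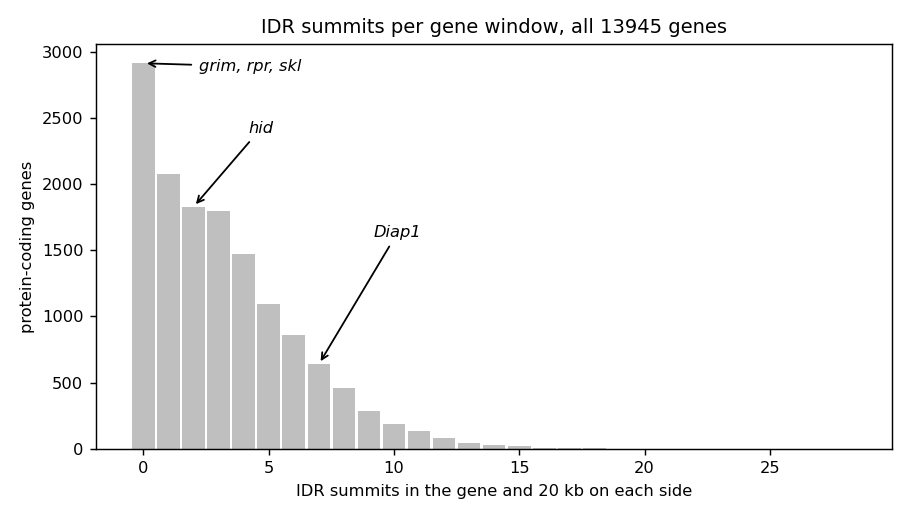
Number of protein-coding genes (vertical axis, from 0) by the number of IDR summits in the gene and 20 kb on each side (horizontal axis), for all 13945 genes. Arrows mark the bars of the 5 cell death genes: grim, rpr and skl with 0, hid with 2 and Diap1 with 7 summits, against a median of 3.

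Of the antagonists, hid, whose product acts in many tissues and is held back by EGFR signalling, was the one with a promoter peak. This gene (FBgn0003997; 18167745 to 18185641) has its annotated transcripts starting at 18185641, and the IDR peak lay 438 bp upstream, from 18185881 to 18186276, with a signal of 295.4 and rank 3083. It ranked 2543 in replicate 1 (signal 129.7), 17824 in replicate 2 (signal 24.4) and 1592 in replicate 3 (signal 162.5). It was thus among the strongest regions of replicates 1 and 3 but far below them in replicate 2. The relaxed summits of the replicates lay 298, 374 and 466 bp from the TSS. The body of hid held no region in the IDR list, the pooled list or the relaxed lists of replicates 1 and 2. Replicate 3 alone placed 2 relaxed summits there, of which the stronger (18179823 to 18180186) had rank 4326.

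The second peak of the hid window belonged to another gene by position. It lay 280 bp upstream of CG7330, from 18148445 to 18148840, with a signal of 272.0 and rank 3567. Its ranks were 1836, 4009 and 4351 in replicates 1, 2 and 3 (signals 153.9, 70.5 and 92.4), among the strongest regions of each. A weaker pooled region (18148650 to 18149045, rank 24498) overlapped it and met the same replicate regions.

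The third peak of the cluster was intergenic, between hid and grim. It spanned 18237776 to 18238171, with a signal of 358.5 and rank 2185, the strongest of the 3. It ranked 4993, 3116 and 1329 in replicates 1, 2 and 3 (signals 89.0, 81.6 and 177.2), again among the strongest regions of each. The nearest TSS of any gene was that of the non-coding gene lncRNA:CR45937 at 3214 bp, and the nearest of a protein-coding gene that of CheA75a at 14114 bp. The TSS of grim was 66443 bp away. The same gap of 117 kb between hid and grim held 9 pooled relaxed summits, and 7, 6 and 23 in replicates 1, 2 and 3. Among these, the region from 18272745 to 18273140 (pooled rank 8889, signal 146.0) recurred in all 3 replicates, with ranks 18977, 4320 and 7815. So did a region over the start of lncRNA:CR45937, with its summit 184 bp from the TSS (18234378 to 18234773, pooled rank 9224), with ranks 9612, 14222 and 8858, and a weaker one beside it (18234606 to 18235001, pooled rank 23290).

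**Figure D2:**
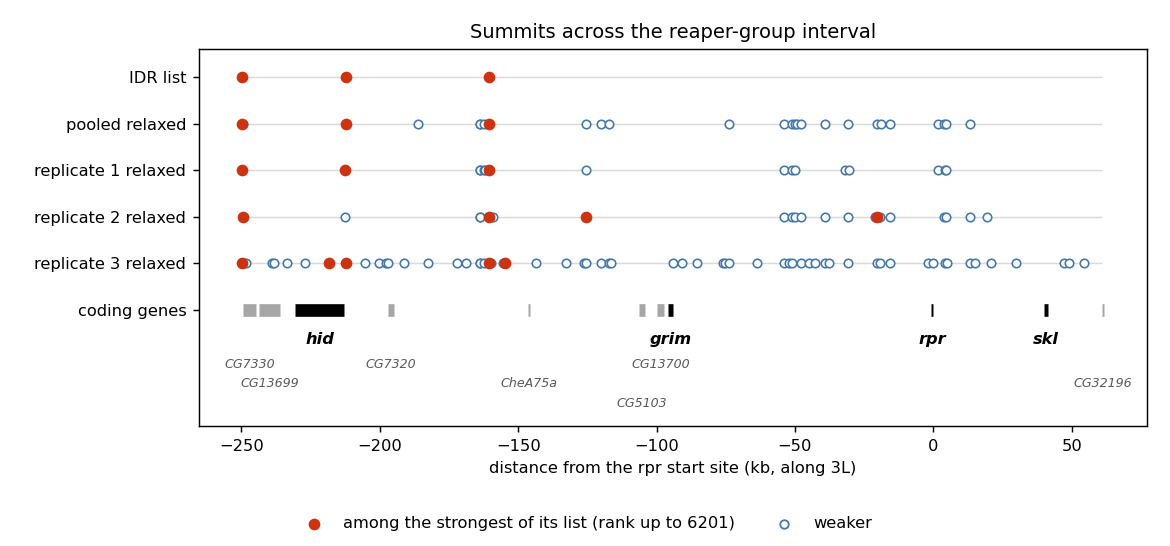
Summits in each of the 5 peak lists (rows) across the reaper-group interval, by distance in kb from the rpr start site along 3L, with protein-coding genes as bars (the 4 antagonists in black). Filled points rank within the 6201 strongest of their list, open points are weaker; the 3 IDR summits all lie before the middle of the hid to grim gap, and replicate 3 has 60 relaxed summits where replicates 1 and 2 have 16 and 22.

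The gene grim (FBgn0015946; 18302719 to 18304417), whose product also acts through mitochondria, had the emptiest surroundings together with skl. Within 20 kb of grim there were 0 summits in the IDR list, the pooled list and the relaxed lists of replicates 1 and 2, and 5 in replicate 3. The nearest pooled relaxed summit was 20251 bp from the TSS. In replicates 1 and 2 the nearest were at 31514 and 31521 bp. In replicate 3 a relaxed region from 18304293 to 18304656 had its summit 58 bp from the TSS, with rank 11588 and a signal of 47.9. The grim promoter therefore rests on replicate 3 alone.

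The gene rpr (FBgn0011706; 18397535 to 18398435), the first of the family to be found and a common endpoint of radiation, steroid and developmental death signals, had no IDR summit within 62638 bp of its TSS. Its 20-kb window held relaxed summits in every list, 7 in the pooled list and 3, 7 and 9 in replicates 1, 2 and 3. The nearest lay 1783 bp from the TSS in the pooled list and 1877, 4032 and 55 bp from it in replicates 1, 2 and 3. The region nearest to the TSS, from 18398308 to 18398671 with rank 6628 and a signal of 70.2, was called in replicate 3 only, just below its strongest regions.

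Both relaxed regions shown by all 3 replicates near rpr lay on its upstream side, in the 40.1-kb gap toward skl. The first spanned 18402269 to 18402664, 4032 bp upstream of the TSS, with pooled rank 10899 and a signal of 124.3, and ranked 11699, 16001 and 8961 in replicates 1, 2 and 3. The second spanned 18402878 to 18403273, 4641 bp upstream, with pooled rank 11537 and a signal of 118.8, and ranked 14260, 12591 and 10413. Neither reached the lowest signal among IDR peaks, 190.7, and neither was among the strongest regions of any replicate. Whether they fall in the known radiation-responsive stretch was not examined.

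On the other side of rpr, the 93.1-kb gap toward grim held no IDR summit and 11 pooled relaxed summits, with 5, 10 and 20 in replicates 1, 2 and 3. The strongest pooled region there (18378010 to 18378405, rank 10001, signal 132.9) lay 20227 bp downstream of the rpr TSS. It was absent from replicate 1, ranked 5212 in replicate 2 and 19165 in replicate 3, so 1 of the 3 replicates placed it among its strongest regions. The regions that recurred in all 3 replicates were weaker. They were 18367555 to 18367950 (pooled rank 12333; ranks 20575, 9630 and 12598), 18347248 to 18347643 (pooled rank 10364; 14252, 21479 and 8506) and 18344184 to 18344579 (pooled rank 18814; 23533, 20616 and 23496).

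The gene skl (FBgn0036786; 18438561 to 18439942), a member described later than the others, had 0 summits within 20 kb in the IDR list, the pooled list and replicates 1 and 2, and 5 in replicate 3. Its nearest IDR summit lay 21131 bp from the TSS, just outside the window, with a signal of 286.5 and rank 3252. That summit, at 18461073, lay beside the 5' end of another gene, CG32196, at 18461024. The relaxed summits nearest to the skl TSS were at 21163, 22002 and 5771 bp in replicates 1, 2 and 3. The bodies of grim, rpr and skl held no summit in any list.

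Grim, rpr and skl lay in 1 uninterrupted stretch without IDR summits. It ran from 18237974 to 18461073, over 223 kb and 7 protein-coding and 9 non-coding genes. Of the 6195 gaps between neighbouring IDR summits 37 were longer, 3 of them among the 1303 gaps of 3L, and the median gap was 5.01 kb. The stretch was not empty of relaxed summits: it held 18 in the pooled list and 10, 16 and 42 in replicates 1, 2 and 3.

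The replicates differed over the antagonist cluster. The interval held 16, 22 and 60 relaxed summits in replicates 1, 2 and 3 (32.7 ± 23.9, SD, n = 3), that is 0.229, 0.314 and 0.858 times the density of each list over all arms. Replicate 3 was thus near the average of the arms, and replicates 1 and 2 were well below it. Of the 60 regions of replicate 3, 42 (70.0%) overlapped no region of the other two replicates, against 24.8% of all regions of that list. In replicates 1 and 2 this was so for 2 of 16 (12.5%, against 12.2%) and 4 of 22 (18.2%, against 16.3%). The 42 regions had ranks from 4326 to 28991 with a median of 22088.5, and 2 were among the strongest regions. At the Diap1 window, 4 of the 28 regions of replicate 3 stood alone (14.3%). Replicate 3 also placed 22.3% of its regions on 3L, against 20.4% in each of the others. Depth and library quality are unknown, and their part in this difference was not tested.

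**Figure D3:**
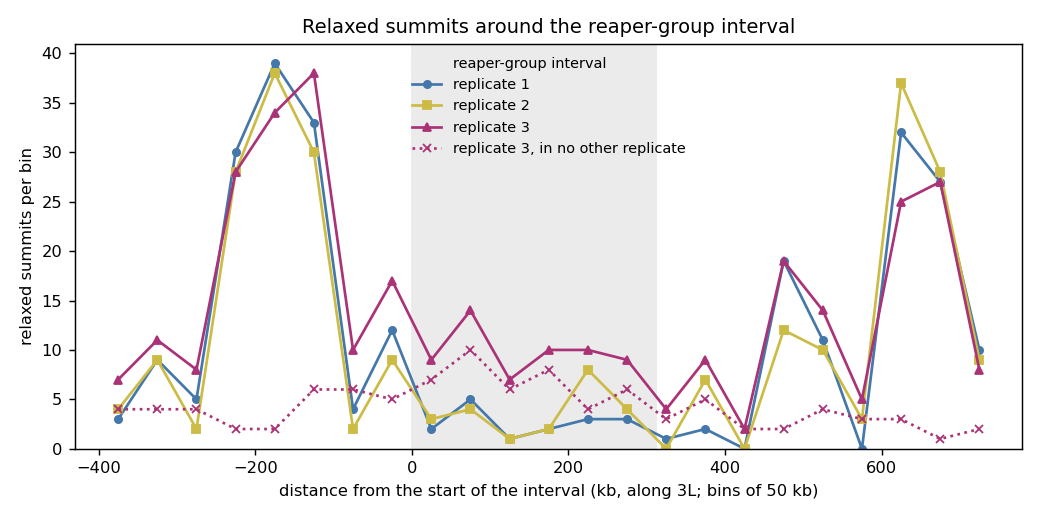
Relaxed summits per 50-kb bin (vertical axis) by distance in kb from the start of the reaper-group interval along 3L (shaded), for replicates 1, 2 and 3, with the regions of replicate 3 that overlap no region of the others as a dotted line. Inside the shaded interval replicate 3 runs above the others in every bin. At the dense places on either side the 3 replicates run closer together. Replicate 3 also runs above the others in sparse bins outside the interval. Examples are the bin at -100 kb, with 10 against 4 and 2, and that at 350 kb, with 9 against 2 and 7.

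The replicate 3 regions also moved the promoter counts by gene. In the pooled relaxed list the promoters of 2 of the 5 genes had a summit within 1000 bp, Diap1 and hid, against 54.5% of all genes. The same 2 had one in replicate 1, against 58.9%, and in replicate 2, against 52.8%. In replicate 3 there were 4 of 5, with grim and rpr added, against 52.4%. Counting the strongest regions, Diap1 and hid had a promoter summit in replicate 1, against 28.1% of genes, and in replicate 3, against 22.6%, but only Diap1 in replicate 2, against 22.4%. With 5 genes these shares are read as counts.

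Diap1 (FBgn0260635; 16038410 to 16051034) was the one member with peaks over its promoters and body. Its body held 4 IDR summits, 6.84 times the density over the arms, and 4, 4 and 5 of the strongest regions of replicates 1, 2 and 3. The relaxed lists placed 16, 12 and 10 summits there. The gene has 5 annotated start sites, at 16051034 (Diap1-RF), 16050671 (RB), 16046846 (RA and RE), 16042570 (RC) and 16040535 (RD). The nearest IDR summits lay 449, 86, 39, 3375 and 5410 bp from them in that order, so the 3 upstream start sites had an IDR summit within 1000 bp and the 2 downstream ones had none.

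The strongest peak of all 10 lay at Diap1-RB. It spanned 16050423 to 16050760, with its summit 86 bp from the start site, a signal of 693.9 and rank 468. It ranked 398, 188 and 1386 in replicates 1, 2 and 3 (signals 288.6, 251.4 and 173.8), high in all of them. At Diap1-RA and RE the peak from 16046698 to 16046971 had its summit 39 bp from the start site, a signal of 522.4 and rank 960. Its ranks were 1548, 265 and 1937 (signals 166.4, 227.5 and 146.5), highest in replicate 2.

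Both other peaks in the body lay in intron sequence just downstream of the RA start site. The one from 16045735 to 16046060, 901 bp downstream, had a signal of 524.7 and rank 950, with ranks 870, 1749 and 1323 in replicates 1, 2 and 3 (signals 213.0, 109.8 and 177.6). The one from 16046086 to 16046361, 664 bp downstream, had a signal of 390.3 and rank 1830, with ranks 1069, 2040 and 3174. All 4 peaks of the body were among the strongest regions of every replicate. The RC and RD start sites had weak relaxed regions, 375 and 269 bp away in the pooled list (ranks 18635 and 21549), and 385 and 289 bp away in replicate 1 and 375 and 264 bp in replicate 2. In replicate 3 the nearest regions were 1796 and 1319 bp away.

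**Figure D4:**
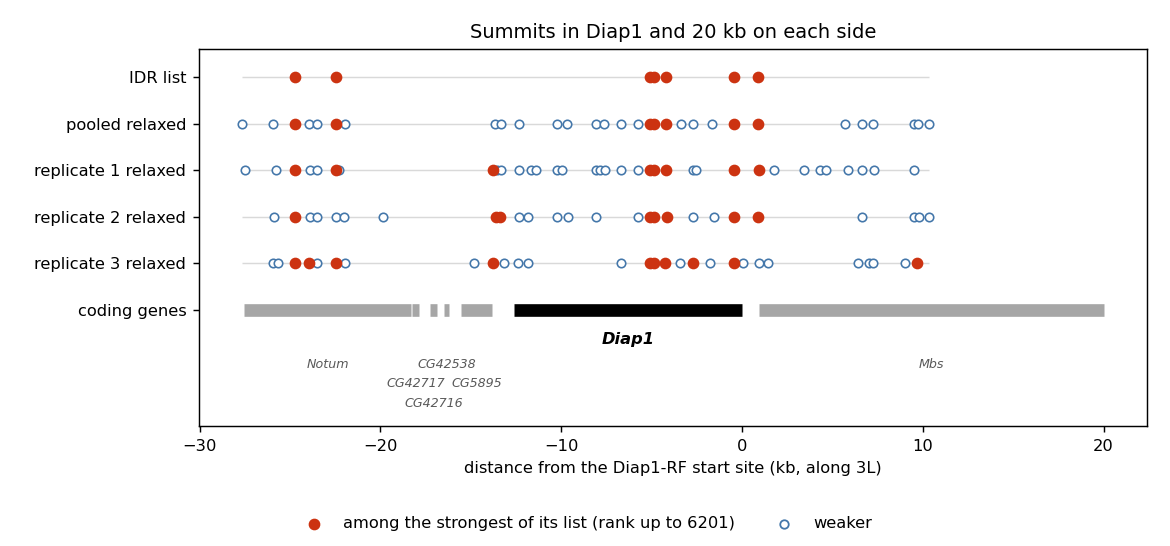
Summits in each of the 5 peak lists (rows) across Diap1 and 20 kb on each side, by distance in kb from the Diap1-RF start site along 3L, with protein-coding genes as bars (Diap1 in black). Filled points rank within the 6201 strongest of their list. The 4 IDR summits of the gene body line up with filled points in all 3 replicates, and replicate 3 has 5 filled points in the body.

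The other 3 IDR peaks of the Diap1 window lay outside its body, nearer to start sites or introns of its neighbours. Upstream, a peak from 16051728 to 16052123 lay 33 bp from a TSS of Mbs, which encodes the myosin-binding subunit of myosin phosphatase. It had a signal of 227.1 and rank 4757, and ranked 3607, 4195 and 9304 in replicates 1, 2 and 3 (signals 108.0, 68.7 and 55.9), lower in replicate 3. Its summit also lay within 1000 bp of the Diap1-RF start site and so counts as a promoter summit of both genes. Downstream, 2 peaks lay in introns of Notum, which encodes a secreted inhibitor of Wingless signalling. One (16026204 to 16026386) had a signal of 472.2 and rank 1231, with ranks 2307, 2262 and 673. The other (16028395 to 16028790) had a signal of 218.7 and rank 5054, with ranks 3714, 8158 and 4844. The window held 7 protein-coding genes and the reaper-group interval 11. Notum and Diap1 were the only coding genes in either with an IDR summit inside the gene body.

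Below the IDR list, the Diap1 window held 30 pooled relaxed summits and 35, 26 and 28 in replicates 1, 2 and 3 (29.7 ± 4.73, SD, n = 3), close to one another. Of its 23 pooled regions outside the IDR list, 11 (47.8%) recurred in all 3 replicates, against 48.3% of all such regions; in the reaper-group interval it was 9 of 23 (39.1%). The best by replicate rank, between CG5895 and Diap1 (16037165 to 16037560, pooled rank 7598, signal 164.8), ranked 6135, 3383 and 4506 and was among the strongest regions of every replicate. The next were in an intron of Notum (16026879 to 16027274, pooled rank 6349; ranks 8760, 8461 and 4292) and in an intron of Diap1 (16048148 to 16048543, pooled rank 7234; ranks 7264, 8796 and 5818). All lay below the lowest IDR signal.

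All 10 IDR peaks overlapped a relaxed region of each of the 3 replicates, as 93.8% of all IDR peaks did. The strongest regions of all 3 replicates overlapped 7 of the 10 (70.0%), against 56.1% of all IDR peaks. The exceptions were the hid promoter, through replicate 2, the weaker Notum peak, through replicate 2, and the Mbs promoter, through replicate 3. The IDR list was made from these replicate lists, so the overlap is not independent of it.

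**Figure D5:**
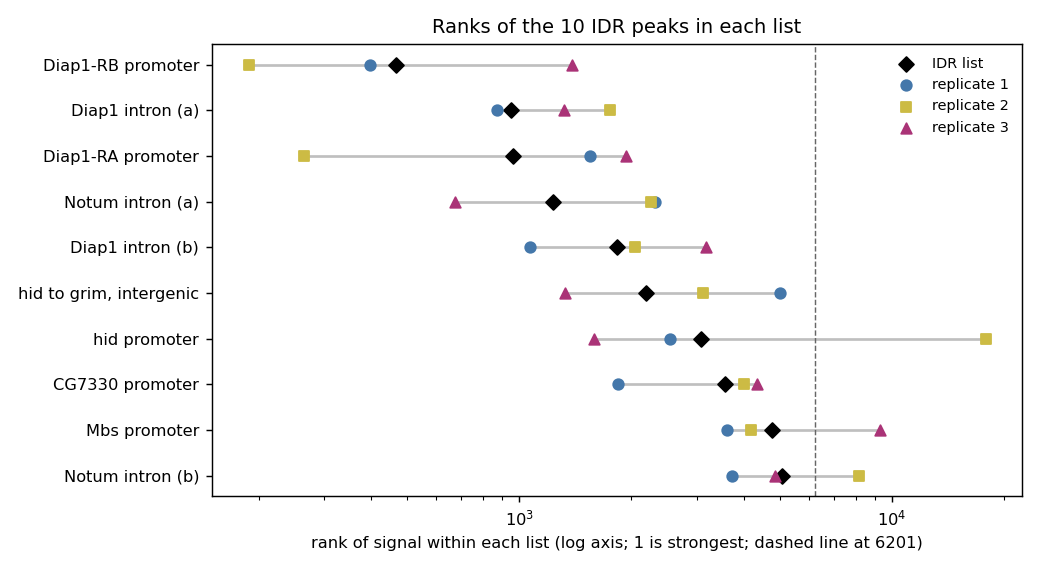
Rank of the signal of each of the 10 IDR peaks in the IDR list and in the relaxed lists of replicates 1, 2 and 3 (log axis, 1 is strongest), ordered by IDR rank; grey lines span the replicates and the dashed line marks rank 6201. The 4 Diap1 peaks rank 3174 or better in every replicate, and the hid promoter spans 1592 to 17824.

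The 6 searched sequences were rare at these summits, in numbers too small to set apart from other IDR peaks. Each was looked for on both strands within 100 bp of a summit. The Iroquois palindrome ACANNTGT occurred at 1 of 10 summits (10%), against 13.4% of all IDR summits and 8.33% of windows of the same size 1000 bp to each side. That match, 16050618 to 16050625, lay 36 bp from the summit of the Diap1-RB peak and is the one printed above. GATAAG, bound by GATA factors, occurred at 2 summits, Diap1-RB and the stronger Notum peak, against 27.1% of IDR summits and 11.4% of flanks. TAATTA, a homeodomain core, occurred at the Mbs promoter (10%, against 11.0% and 12.4%), and TGACAG, of TALE homeodomain proteins, at the weaker Notum peak (10%, against 7.58% and 6.18%). The DRE promoter element TATCGATA (2.52% of IDR summits, 0.605% of flanks) and the GAGA factor sequence GAGAGAG (7.43% and 3.80%) occurred at none of the 10. A match is a description and not a site. The 201-base windows had a median GC content of 38.3% (30.8 to 42.8%), against 43.3% over all IDR summits.

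The proximal promoters are shown because hid and Diap1 have an IDR summit within 1000 bp of a start site. The other 3 genes have none. Of the runs shown, only that of Diap1-RA overlaps an IDR peak. The hid peak begins farther upstream, at 18185881, and the Diap1-RF run lies between the peaks at Diap1-RB and Mbs. Each run is the 100 bases upstream of the start site, on the strand of the gene, from the RefSeq Release 6 genome, with the same 6 sequences in capitals.
hid, chr3L:18185642-18185741: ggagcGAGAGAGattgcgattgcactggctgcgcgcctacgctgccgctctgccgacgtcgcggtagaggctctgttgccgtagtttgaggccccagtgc
grim, chr3L:18304418-18304517: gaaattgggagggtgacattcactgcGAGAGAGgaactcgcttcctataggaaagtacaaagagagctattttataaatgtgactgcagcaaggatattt
rpr, chr3L:18398436-18398535: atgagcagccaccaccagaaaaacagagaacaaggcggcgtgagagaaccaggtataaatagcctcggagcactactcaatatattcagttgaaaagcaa
skl, chr3L:18439943-18440042: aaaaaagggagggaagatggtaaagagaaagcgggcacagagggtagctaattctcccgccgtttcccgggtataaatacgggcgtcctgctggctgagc
Diap1-RA, chr3L:16046847-16046946: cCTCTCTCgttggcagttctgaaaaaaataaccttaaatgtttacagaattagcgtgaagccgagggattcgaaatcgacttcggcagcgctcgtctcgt
Diap1-RF, chr3L:16051035-16051134: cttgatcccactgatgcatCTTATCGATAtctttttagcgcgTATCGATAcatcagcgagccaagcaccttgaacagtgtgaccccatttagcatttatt
The windows of the other Diap1 start sites, RB, RC and RD, held no match and are not shown. Of the 9 windows, 3 held GAGAGAG, those of hid and grim and, on the other strand, Diap1-RA, against 3.47% of 19253 such windows over all start sites. Diap1-RF had TATCGATA at 2 places, against 5.13% of windows, and the first overlapped GATAAG on the other strand (8.46% of windows). None of the 6 sequences lay in the windows of rpr and skl. The Iroquois sequence, found in 4.31% of all windows, lay in none of the 9.

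Other genes of the death pathway were counted from a list. Of 27 listed genes, all of which were matched, 12 (44.4%) had an IDR summit within 1000 bp of a TSS and 23 (85.2%) had one in the gene body or 20 kb on each side, beside 25.1% and 79.1% of all genes. In the strongest regions of the replicates, 9, 10 and 11 of the 27 had a promoter summit (37.0% ± 3.70, SD, n = 3), beside 24.4% ± 3.24 of all genes. These are counts on a list drawn up with earlier results of these data known, and they were not tested.

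The counts by role cover only the listed genes, few in each role, and stand beside the 25.1% of all genes. The 3 listed genes for the engulfment of dead cells each had a promoter peak. They were crq, for a scavenger receptor of phagocytes (rank 1404; 3480, 920 and 1320 in replicates 1, 2 and 3), ced-6, for an engulfment adaptor (rank 2363; 3095, 1643 and 2561), and drpr, for the receptor Draper (rank 5774; 5134, 5650 and 10729). Among effector caspases it was 2 of 4, Dcp-1 (rank 2291, 960 bp from the TSS) and Drice (rank 5331), the latter with ranks 9527, 14594 and 3127 and so among the strongest regions of replicate 3 alone. Damm and Decay had none. Of 3 initiator caspases 1 had a promoter peak, Strica, 145 bp from the TSS. It was the strongest promoter peak of the list, with a signal of 467.4 and rank 1260 (1995, 509 and 1795). Neither of the 2 listed genes for DNA fragmentation had a promoter peak, nor did the 1 for a death domain adaptor.

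Of the genes upstream of the caspases, p53, for the DNA damage factor that activates rpr, had a peak 42 bp from a TSS with a signal of 406.7 and rank 1694 (1407, 7209 and 1167). Of both Bcl-2 family genes, Buffy had a promoter peak (rank 4592) and Debcl had none, and Dark, for the apoptosome adaptor, had none. Counted over the gene body and 20 kb on each side, Debcl had 7 IDR summits, Dark 4 and Buffy 2. Of 3 tumour necrosis factor pathway genes, the receptor gene grnd had a promoter peak (rank 5169), which was missing from replicate 2. All 3 had an IDR summit in the gene body or 20 kb on each side. Among other inhibitors and modifiers, peaks lay at dnr1, for a RING protein that restrains caspases (rank 2320), at HtrA2, for a mitochondrial protease (rank 4454, missing from replicate 2), and at morgue, for a ubiquitin pathway protein that lowers Diap1 (rank 5292). None of the 3 other inhibitor of apoptosis family genes, Bruce among them, had a promoter peak. Within that family the promoter peaks lay at Diap1.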

How the data were processed

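Binding of GFP-tagged Mirror was measured by ChIP-seq in 3 biological replicates of 1 group. Per the labels, chromatin was sonicated to 200 to 800 bp. Per the deposited file descriptions, reads were aligned to dm6 by the authors, who called relaxed regions in each replicate and in the pooled replicates against 1 shared control alignment and selected IDR peaks from them. Aligner, peak caller, read totals and the cutoff of the IDR step are not given in the sources used here. Each value is the signal of a region as deposited by the authors in the peak lists, with no stated scale; it served only to rank regions within a list. Depth is therefore unknown and no counting interval is given.

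Summits were placed on the Ensembl 115 annotation of BDGP6.54 (13945 protein-coding genes with 19607 start sites on the chromosome arms), and sequences came from the RefSeq Release 6 genome, on which the 5 genes have the same coordinates. A region counted as shared at any overlap. A promoter summit lay within 1000 bp of a start site. Counts and sequence matches were made in Python 3.11.15 with pandas 2.3.3 and numpy 2.4.6, and the calculations were tested on simulated data. With 1 group no comparison was tested; spread is the SD over the strongest 6201 regions of each replicate list. P-values would not apply, since regions and genes are not biological replicates.

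The genes named are the 5 members, any gene with a start site in their windows by position, and, of 27 other cell death genes, those with a promoter IDR summit plus the first 5 without one in alphabetical order (Bruce, Damm, Dark, Debcl, Decay). Peaks named are all IDR peaks in the windows, the strongest relaxed region where a window or gap held no IDR summit, and up to 3 per window or gap that recurred in all replicates; the regions of replicate 3 alone at grim, rpr and hid were named after their values were seen. The members and lists were chosen with earlier results of these data known. Alternatives were the flank, the start site and sequence windows, the peak list, the overlap rule, merged summits and leaving out each replicate.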

Additional observations from a re-analysis of the deposited data

How the results depend on the processing

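Of 66 alternative values, 47 stayed within the spread between replicates (counts within 1.5 times) and 19 moved. Each was set against the value from the IDR list. For counts, densities and the Iroquois share, values with a replicate left out came from the strongest regions of the others. A move there mixes the change of list with the replicate left out. With the pooled relaxed list the count of summits was 26 in the reaper-group interval and 30 at Diap1, lists of different length. The density ratio of the interval, 0.207, was 0.277 with the 3100 strongest IDR peaks and 0.372 with the pooled relaxed list. In the strongest regions its mean was 0.242 to 0.311 with a replicate left out, beside 0.277 over all 3. It was below 1 throughout. The density ratio of Diap1, 2.87, was 4.77, 3.97 and 1.92 with flanks of 5, 10 and 50 kb. With the 3100 strongest peaks it was 4.10. In the strongest regions its mean was 3.28 to 3.69 with a replicate left out, beside 3.56 over all 3. It was above 1 throughout, and 4 of the 7 IDR summits of the Diap1 window lie in the gene body. Without flanks, 1 of the 5 genes had an IDR summit. The share of the 10 IDR peaks found among the strongest regions of all replicates, 70.0%, was 40.0% at 50% reciprocal overlap, 60.0% with summits within 100 bp, 100% with the relaxed lists, 85.7% for the 3100 strongest peaks and 70.0 to 90.0% with a replicate left out. The share with the Iroquois sequence, 10%, was 12.9 to 18.3% as a mean over the strongest regions with 1 replicate left out. The share over all strongest regions was not counted, so these values are not set against the 13.4% of all IDR summits. The 2 genes of 5 with a promoter summit stand beside 25.1% of all genes in the IDR list and 54.5% in the pooled relaxed list. No paired analysis was possible because there was 1 group and no test. Unknown depth and a shared control limit every count, and at 10 peaks a share moves by 10 percentage points with each peak.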

Other observations

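The following values were chosen after the replicate lists were seen, and their cause was not tested. When the arms were divided end to end into windows as long as the reaper-group interval, leaving out those that touch it, the median of the 424 windows was 13 IDR summits, and 70 windows (16.5%) held 3 or fewer. For relaxed regions, windows with no more than the interval made up 14.4% of the total in replicate 1, 15.3% in replicate 2 and 30.4% in replicate 3. The windows took in sequence with almost no regions, and the lowest count was 0 in every list. At least 10 relaxed regions were held by 368 of the 424 windows in replicate 1, 367 in replicate 2 and 365 in replicate 3. Most windows as sparse as the interval in replicates 1 and 2 therefore held fewer than 10 regions.

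The share of regions called in replicate 3 alone was higher in the interval than in any other window examined. Among the 365 windows with at least 10 regions of replicate 3, a median of 24.1% of these overlapped no region of the other replicates, and the highest value was 64.6%, below the 70.0% of the interval. In the 7 sparse windows, with at most 25 regions in replicate 1 and at least 10 in replicate 3, the share ran from 37.5 to 64.6% with a median of 48.8%, also above the median of all windows. Replicate 3 had 3.75 times as many relaxed regions as replicate 1 in the interval and 2.73 times as many as replicate 2, and 1 of 369 windows had a ratio at least as high in each comparison. Next to the interval, 18% of 139 regions of replicate 3 stood alone in the equal length before it and 31.7% of 63 in the length after it. These lengths mix dense and sparse 50-kb bins, placed by distance from the interval start. In sparse bins 6 of 10 stood alone at -100 kb, 5 of 17 at -50 kb and 5 of 9 at 350 kb. In dense bins it was 2 of 28 at -250 kb and 2 of 19 at 450 kb. The signals of the 42 regions in the interval ranged from 24.9 to 92.8 with a median of 30.4, in a list whose lowest signal was 24.3.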
